A study of Homo sapiens with 6 samples.

Results

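NF-κB is a family of dimeric transcription factors built from 5 subunits, encoded by RELA, RELB, REL, NFKB1 and NFKB2. The 10 genes described here are these subunits, the inhibitors NFKBIA and TNFAIP3, the ubiquitin ligases BIRC2 and BIRC3, and the adhesion molecule ICAM1. They were taken by symbol from the 60675 genes of the count table, and all 10 were found. RNA-seq counts were compared between 3 wells of A2058 cells, an established human line from a metastatic melanoma, that were kept without vitamin C and 3 wells that received vitamin C. The sample labels give 100 µM vitamin C for 48 h, while the protocol text of the same labels gives 50 µM sodium ascorbate. The media contained no vitamin C of their own, per the methods of the study. Cells were grown in 6-well plates with a daily change of medium before each dose, and ribosome-depleted RNA was sequenced. As every well held the same line, p-values here speak only of well-to-well spread.

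In resting cells, NF-κB dimers are held in the cytoplasm by inhibitors of the IκB family, of which NFKBIA encodes IκBα. NFKB1 and NFKB2 encode the precursors p105 and p100, which also act as inhibitors until they are processed to p50 and p52. When receptors for TNF, interleukin 1 or microbial products are engaged, the IκB kinase complex marks IκBα for degradation and the dimers enter the nucleus. A second, noncanonical route works through NFKB2 and RELB and is restrained by BIRC2 and BIRC3 (cIAP1 and cIAP2), which keep the kinase MAP3K14 low. Many inhibitors of the pathway are themselves its target genes, among them NFKBIA, TNFAIP3 (the ubiquitin-editing enzyme A20) and BIRC3, which gives the response a negative feedback.

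The promoter windows of the genes that rose are shown because 2 of the 3 hold letters of the κB motif, the DNA element that NF-κB dimers bind. Each window runs from 250 bases before to 50 bases after a RefSeq transcript start (GRCh38.p14, 5′ to 3′ on the strand of the gene), and capitals mark each match to the κB consensus on either strand. NFKBIA, which holds a match and did not pass the test, is shown for comparison.
TNFAIP3 (chr6:137867009-137867308, plus strand): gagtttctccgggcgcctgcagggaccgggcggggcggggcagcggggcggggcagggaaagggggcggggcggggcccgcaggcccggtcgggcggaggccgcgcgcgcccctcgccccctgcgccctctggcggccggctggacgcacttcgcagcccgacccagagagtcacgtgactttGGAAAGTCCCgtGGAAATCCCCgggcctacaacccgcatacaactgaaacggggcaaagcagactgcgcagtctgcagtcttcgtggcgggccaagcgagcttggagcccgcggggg
BIRC3 (chr11:102317234-102317533, plus strand): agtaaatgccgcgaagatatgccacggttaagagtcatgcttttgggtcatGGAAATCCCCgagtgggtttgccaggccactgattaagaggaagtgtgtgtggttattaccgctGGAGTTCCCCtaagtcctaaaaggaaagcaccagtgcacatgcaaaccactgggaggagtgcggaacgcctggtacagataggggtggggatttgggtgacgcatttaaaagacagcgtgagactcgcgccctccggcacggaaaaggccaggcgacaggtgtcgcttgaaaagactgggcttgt
BIRC2 (chr11:102346964-102347263, plus strand): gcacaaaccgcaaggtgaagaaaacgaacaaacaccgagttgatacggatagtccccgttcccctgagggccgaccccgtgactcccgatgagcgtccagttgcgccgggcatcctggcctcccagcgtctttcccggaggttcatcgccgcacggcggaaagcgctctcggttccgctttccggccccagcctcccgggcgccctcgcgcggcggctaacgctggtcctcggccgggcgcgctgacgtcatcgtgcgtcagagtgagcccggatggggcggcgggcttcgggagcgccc
NFKBIA (chr14:35404700-35404999, minus strand): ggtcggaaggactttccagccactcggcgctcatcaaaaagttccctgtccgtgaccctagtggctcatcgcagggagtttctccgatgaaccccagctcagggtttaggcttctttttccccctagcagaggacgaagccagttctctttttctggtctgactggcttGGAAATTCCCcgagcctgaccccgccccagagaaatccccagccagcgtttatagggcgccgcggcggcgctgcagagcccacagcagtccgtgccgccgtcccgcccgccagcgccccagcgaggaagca

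The TNFAIP3 window holds 2 matches, from 67 to 58 and from 55 to 46 bases before the start. BIRC3 also holds 2, from 199 to 190 and from 135 to 126 bases before its start, and NFKBIA holds 1, from 81 to 72 bases before its start. The BIRC2 window, and a second window of BIRC2 at another start, hold none of these letters. Matches also lie before the starts of 3 subunit genes, and 4 of them are shown with the bases around them because these genes carry the motif without having passed the test.
NFKB1 (chr4:102501302-102501327, plus strand): acgtcagtGGGAATTTCCagccagga
REL (chr2:60881519-60881544, plus strand): tcagccgcGGGAAATTCCcctcccgc
NFKB2 (chr10:102394492-102394517, plus strand): gccgagaaGGGGCTTTCCcggccctg
NFKB2 (chr10:102395676-102395701, plus strand): gtattttcGGGACTTTCCtaagctgc

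RefSeq windows were matched for 9 of the 10 genes, and 6 of these 9 hold at least 1 match. The other 3 (RELA, BIRC2 and ICAM1) hold none. Some genes have several starts, and by window 7 of 14 hold a match, beside 5.91% of all 35116 windows of 300 bases. The 10 genes were chosen as subunits, regulators and targets of NF-κB, and windows of the same gene are not independent. The higher share is therefore a description and not a test. A match says only that the letters are present. The lack of a match does not show the lack of a κB site, as near matches and bases outside the windows were not counted.

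Levels are given as CPM, that is counts scaled to a library total of 1000000 after TMM normalization. Library totals ran from 16248869 to 41884588 counts without and 20944956 to 32549362 counts with vitamin C. The markers of the melanocyte lineage fitted the label of the line: the summed level of 8 such markers was 5372 to 5595 CPM in control and 5258 to 5655 CPM in vitamin C wells. VIM, which is not specific to this lineage, and DCT made up most of this sum. MLANA was called higher (10.4-fold, from 1.54 to 15.4 CPM), as were PMEL (1.66-fold) and TYR (1.22-fold), and DCT was called lower (0.814-fold), while SOX10, S100B, VIM and MITF did not pass the test. All 10 genes passed the filter on low counts. They were tested among 16353 genes with edgeR's quasi-likelihood test, and a gene was called at an adjusted p under 0.05.

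With vitamin C, BIRC3, TNFAIP3 and BIRC2 rose, by 1.35 to 1.58-fold, and none of the 5 subunit genes passed the test. Thus 3 of the 10 genes were called, all higher, against 11.2% of all genes tested in either direction and 6.09% called higher. No member was called lower, also not at an unadjusted p under 0.05 (0 genes) or in DESeq2 (0 genes). DESeq2 called 3 members higher and 11.3% of all genes for which it gave an adjusted p. The log2 fold change was above 0 for 9 of the 10 genes, beside 8032 of the 16353 genes tested. The median of the 10 was 0.23, while the median over all genes was -0.004. The libraries of the groups did not overlap for 6 of the 10 genes, all higher with vitamin C, against 30.6% of all genes in either direction and 15.6% in the higher direction. In bulk RNA, a change in the number of cells that express a gene and a change in RNA per cell cannot be told apart.

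**Figure D1:**
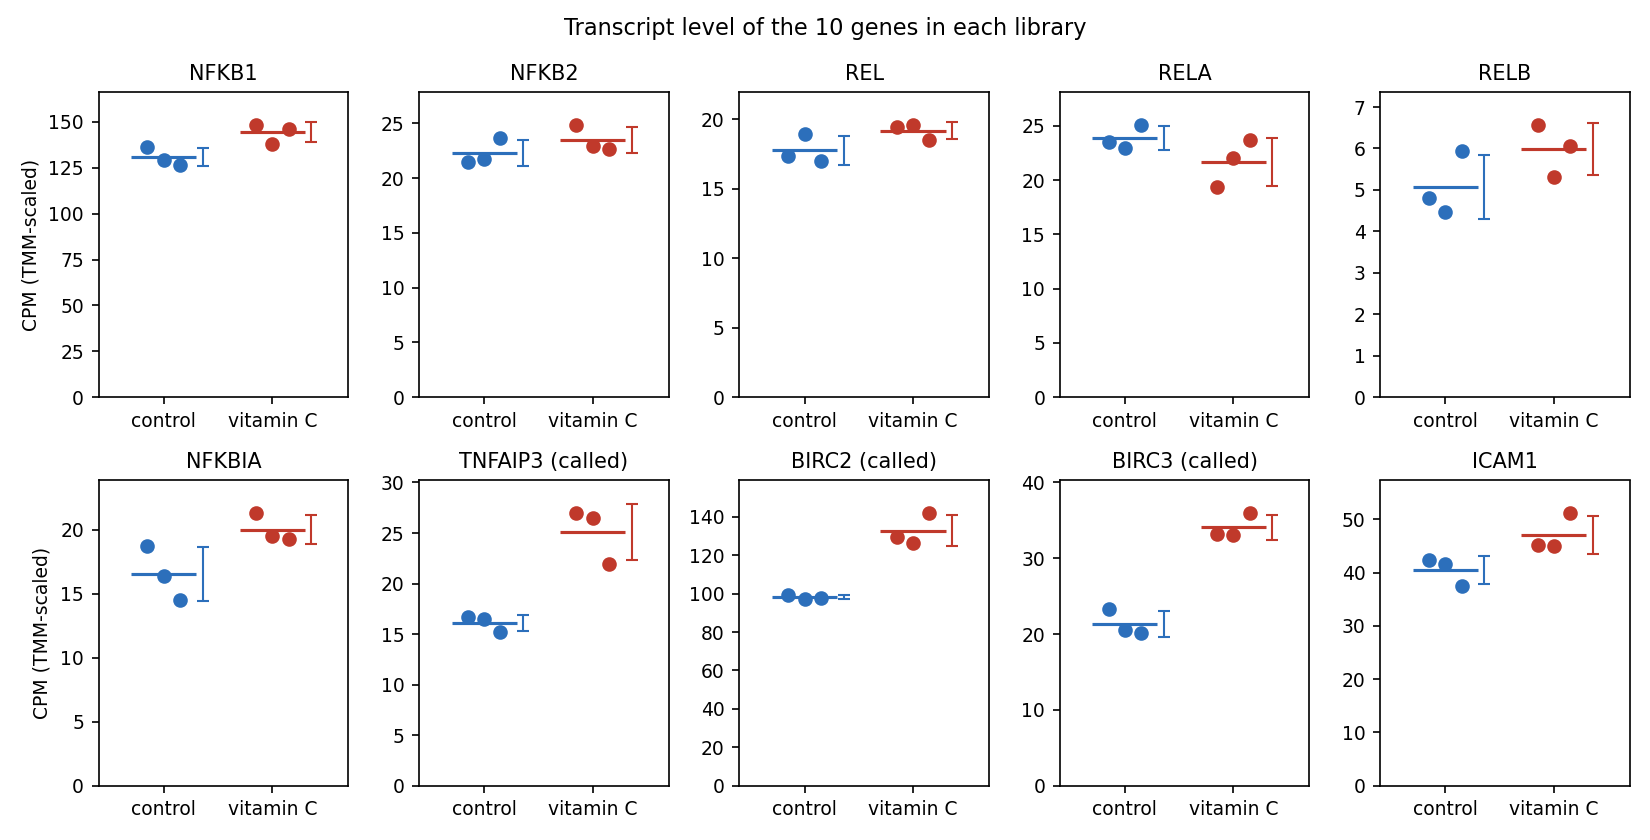
Level of the 10 genes in CPM after TMM scaling (y axis, from 0, scaled for each gene), with 1 point per library, blue for control and red for vitamin C. Lines are means of 3 libraries and bars the SD. The vitamin C libraries of TNFAIP3, BIRC2 and BIRC3 lie far above the control libraries, while those of NFKB2, REL, RELA and RELB overlap them.

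BIRC3 (ENSG00000023445, chromosome 11, 102317450 to 102339403, plus strand, GRCh38) had the smallest p of the 10 genes and rank 108 of 16353. Its level was 23.4, 20.5 and 20.2 CPM in control replicates 1, 2 and 3 and 33.2, 33.1 and 35.9 CPM in vitamin C replicates 1, 2 and 3. All 3 treated wells were above all 3 control wells, and the gap between the groups was wider than the range within either group. The means were 21.3 ± 1.76 CPM without and 34.1 ± 1.63 CPM with vitamin C (SD, n = 3 wells each), a 1.58-fold rise (95% confidence interval 1.42 to 1.77, log2 fold change 0.66, SE 0.0749), with an edgeR adjusted p of 8.8e-05.

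BIRC2 (ENSG00000110330) lies next to BIRC3 on the same strand, from 102347211 to 102378670. It is the more abundant cIAP gene in these cells. Control wells held 99.4, 97.4 and 97.7 CPM and vitamin C wells 130, 127 and 142 CPM. The control wells were close to each other (SD 1.04 CPM around a mean of 98.2) and the treated wells, at 133 ± 8.07 CPM (SD, n = 3), did not overlap them. BIRC2 rose 1.35-fold (95% confidence interval 1.25 to 1.46, log2 fold change 0.43, SE 0.0524, edgeR adjusted p = 0.00014). BIRC2 and BIRC3 are related in sequence, and the sources used here do not say how reads that align to both were counted.

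TNFAIP3 (ENSG00000118503, chromosome 6, 137867188 to 137883312, plus strand) edits ubiquitin chains on signaling proteins and so shuts the pathway off. In control replicates 1, 2 and 3 it had 16.7, 16.5 and 15.2 CPM, and in vitamin C replicates 1, 2 and 3 it had 27.0, 26.5 and 22.0 CPM. The third treated well was the lowest of its group and still above every control well. The means were 16.1 ± 0.796 and 25.1 ± 2.76 CPM (SD, n = 3 wells each), a 1.55-fold rise (95% confidence interval 1.36 to 1.77, log2 fold change 0.64, SE 0.0870, edgeR adjusted p = 0.00038). An antisense gene, AL357060.1, covers 1.88% of its exon bases and had 185 counts over the control and 222 over the vitamin C libraries (edgeR adjusted p = 0.29).

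NFKBIA (ENSG00000100906, chromosome 14, 35401511 to 35404749, minus strand), the other inhibitor, moved less. Its level was 18.7, 16.4 and 14.5 CPM in control and 21.3, 19.5 and 19.2 CPM in vitamin C replicates 1, 2 and 3. The groups did not overlap, but control replicate 1 lay within 1 CPM of the lowest treated well. The fold was 1.20 (95% confidence interval 1.04 to 1.37, log2 fold change 0.26, SE 0.0924) and the edgeR adjusted p was 0.092, so NFKBIA was not called. Without control replicate 1, the highest of the control wells, its log2 fold change was 0.37 and its edgeR adjusted p 0.039.

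ICAM1 (ENSG00000090339, chromosome 19, 10270835 to 10286615, plus strand), the surface ligand of leukocyte integrins and a known NF-κB target, also had separate groups without passing the test. It was at 42.4, 41.7 and 37.4 CPM in control wells and at 45.2, 44.9 and 51.2 CPM in vitamin C wells. The fold was 1.16 (95% confidence interval 1.04 to 1.28, log2 fold change 0.21, SE 0.0701, edgeR adjusted p = 0.074). When genes with low counts were kept in the fit, the edgeR adjusted p was 0.045. Antisense genes cover 23.6% of the exon bases of ICAM1, and the 2 of them, AC011511.2 and AC011511.5, had 8 counts each over the control libraries and 14 and 9 over the vitamin C libraries. The sources used here do not say whether the strand was used in counting.

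Among the subunits, NFKB1 had the smallest p and the highest level. NFKB1 (ENSG00000109320, chromosome 4, 102501329 to 102617302, plus strand) had 136, 129 and 127 CPM in control wells and 149, 138 and 146 CPM in vitamin C wells. The groups did not overlap, though control replicate 1 and vitamin C replicate 2 were near each other. The fold was 1.10 (95% confidence interval 1.02 to 1.19, log2 fold change 0.14, SE 0.0493) with an edgeR adjusted p of 0.086. It was the only 1 of the 5 subunits that was past an unadjusted p of 0.05, and DESeq2 called 0 of the 5.

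RELA (ENSG00000173039, chromosome 11, 65653596 to 65663094, minus strand), which encodes the main transactivating subunit p65, was the only member with a log2 fold change under 0. Its values were 23.5, 23.0 and 25.1 CPM in control and 19.4, 22.0 and 23.7 CPM in vitamin C replicates 1, 2 and 3. The third treated well was above 2 of the control wells, and the spread was wider with vitamin C (coefficient of variation 10.1%) than in control wells (4.65%). The log2 fold change was -0.14 (95% confidence interval -0.31 to 0.04, edgeR adjusted p = 0.33).

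The other 3 subunits had overlapping groups. NFKB2 (ENSG00000077150, chromosome 10, 102394110 to 102402529, plus strand) had 21.4, 21.7 and 23.6 CPM in control and 24.9, 23.0 and 22.6 CPM in vitamin C wells, with a log2 fold change of 0.08 (95% confidence interval -0.07 to 0.24, edgeR adjusted p = 0.52). REL (ENSG00000162924, chromosome 2, 60881521 to 60931610, plus strand), the c-Rel subunit best known from lymphocytes, had 17.3, 18.95 and 17.0 CPM against 19.5, 19.6 and 18.5 CPM. Its log2 fold change was 0.11 (95% confidence interval -0.05 to 0.27, edgeR adjusted p = 0.40). In GENCODE 29, 43.3% of the REL exon bases are shared with other genes on the same strand. One of these, AC010733.2, was listed at 0 counts in all 6 libraries. RELB (ENSG00000104856, chromosome 19, 45001430 to 45038198, plus strand), the partner of p52, was the least counted member. Its counts in replicates 1, 2 and 3 were 200, 120 and 96 without and 168, 175 and 127 with vitamin C, that is 4.80, 4.47 and 5.94 CPM against 6.57, 5.32 and 6.06 CPM. Its log2 fold change was 0.26 with the widest interval of the 10 (-0.04 to 0.56, edgeR adjusted p = 0.27), so a rise of up to 1.47-fold lies within the interval.

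**Figure D2:**
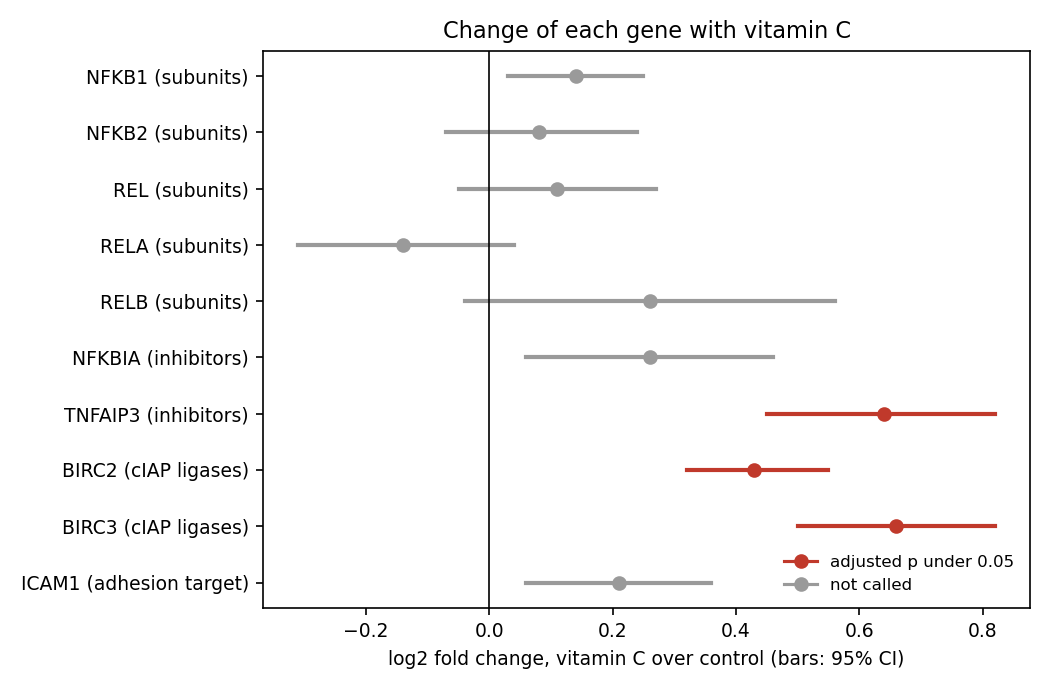
Log2 fold change for each gene, positive where higher with vitamin C (x axis), with its 95% confidence interval (bars), red where the edgeR adjusted p was under 0.05 and gray otherwise. BIRC3, TNFAIP3 and BIRC2 lie at 0.66, 0.64 and 0.43, and the 5 subunits lie between -0.14 and 0.26.

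Levels were compared between genes as CPM per kb of annotated exon bases. These bases join all annotated transcripts of a gene, so the order of genes depends on the annotation. Without vitamin C, BIRC2 (21.7 ± 0.229 CPM per kb) and NFKB1 (20.9 ± 0.783) were the highest, and their wells overlapped. ICAM1 (10.9 ± 0.718), NFKBIA (6.96 ± 0.892), NFKB2 (4.97 ± 0.266) and RELA (4.37 ± 0.203) followed, each below the one before it in every control well. TNFAIP3 (3.19 ± 0.158) and BIRC3 (2.84 ± 0.234) overlapped each other, and RELB (1.67 ± 0.254) and REL (1.35 ± 0.0787) were the lowest (SD, n = 3 wells each). The REL value uses all its exon bases, including those shared with other genes, whose reads may not have been counted.

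With vitamin C this order changed in the middle. The means of TNFAIP3 (4.98 ± 0.546 CPM per kb) and BIRC3 (4.53 ± 0.217) then lay above that of RELA (3.97 ± 0.401). In vitamin C replicate 3, TNFAIP3 and RELA were almost equal (4.347 and 4.342 CPM per kb). The lowest BIRC3 well (4.399) was also close to that RELA value. TNFAIP3 overlapped NFKB2 (5.24 ± 0.273). The wells of BIRC2 (29.3 ± 1.78) and NFKB1 (23.1 ± 0.876) no longer overlapped (SD, n = 3 wells each), while within each library BIRC2 was the higher of the pair in both groups.

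Ratios of counts between members were formed within each library, where library scaling has no part. An exact two-sided permutation test of 3 wells against 3 cannot give a p below 0.1, so none of the 5 ratios could pass the threshold, and their p-values adjusted over the 5 ran from 0.167 to 0.4. BIRC3 counts per BIRC2 count were 0.235, 0.210 and 0.206 in control and 0.256, 0.261 and 0.253 in vitamin C wells. The treated wells did not overlap the control wells (p = 0.1, the smallest possible, exact permutation test).

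RELB counts per RELA count were 0.204, 0.194 and 0.236 in control and 0.339, 0.242 and 0.256 in vitamin C wells, without overlap (exact permutation p = 0.1). Vitamin C replicate 1 stood apart from the other treated wells. Without it the log2 difference of the mean went from 0.39 to 0.24. NFKBIA counts per RELA count were 0.797, 0.710 and 0.576 in control and 1.10, 0.887 and 0.811 in vitamin C wells (exact permutation p = 0.1), with control replicate 1 near vitamin C replicate 3.

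For REL to RELA, the means of the groups were 0.746 ± 0.0735 and 0.891 ± 0.113 (SD, n = 3 wells each, exact permutation p = 0.2), and the wells overlapped. NFKB2 to NFKB1, the balance of the precursor genes, was 0.171 ± 0.0147 in control and 0.163 ± 0.00709 with vitamin C (SD, n = 3 wells each, exact permutation p = 0.4).

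**Figure D3:**
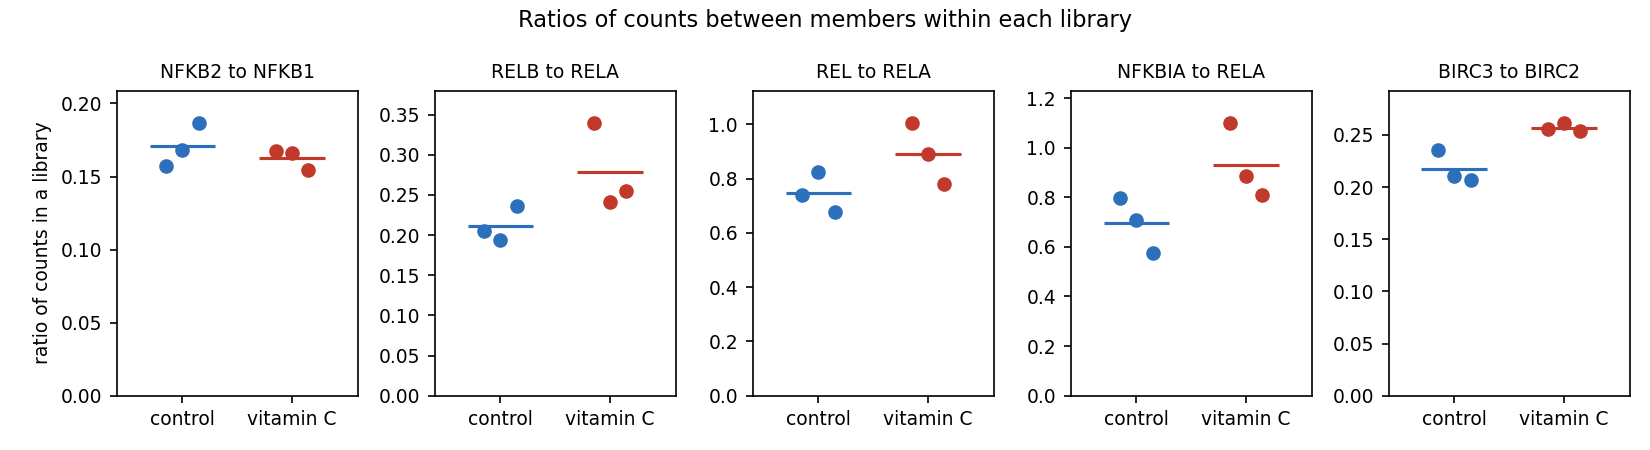
Ratio of counts of 2 members within each library (y axis, from 0), with 1 point per library and lines at the means of 3, blue for control and red for vitamin C. The groups do not overlap for RELB to RELA, NFKBIA to RELA and BIRC3 to BIRC2, and overlap for NFKB2 to NFKB1 and REL to RELA.

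The other genes of the pathway were taken from 8 lists ordered by role, 116 genes in all, of which 97 had enough counts to test. With vitamin C 23 of the 97 were called higher and 1 lower, that is 24.7% against 11.2% of all genes. The median log2 fold change of the 97 was 0.09. The lists were chosen with earlier results of these data known, so this share is a description and not a test. The ligands held 3 of these 24 calls and the target genes 10. The gene called lower by edgeR was a target gene. DESeq2 called 20 of these genes higher and 1 lower, the latter in the ICAM list. It did not give every one of the 97 an adjusted p, and TNFSF11 and VCAM1, which edgeR called, had none. Of the genes edgeR called higher, TNIP3, BIRC7, TNFSF11, VCAM1, CXCL10 and C3 passed the filter on low counts only through their vitamin C libraries. They could be tested only because they were high with vitamin C, so their calls are no separate support for the higher share.

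Of the 10 ligand genes, 5 were tested and 3 rose (60% of those tested, beside 11.2% of all genes). The 3 include TNFSF11, which passed the filter on low counts only through its vitamin C libraries. TNF, LTA and LTB had at most 3 counts over the 3 libraries of either group. IL1B rose from 1.63 ± 0.287 to 13.2 ± 1.05 CPM and IL1A from 0.908 ± 0.237 to 1.95 ± 0.273 CPM (SD, n = 3 wells each), with log2 fold changes of 3.07 and 1.06 (edgeR adjusted p = 2.4e-08 and 0.015). The IL1A call was lost without control replicate 1 or 3 (edgeR adjusted p = 0.069 and 0.058). For TNFSF11 (RANKL), replicates 1, 2 and 3 held 8, 8 and 4 counts without and 24, 22 and 19 with vitamin C (log2 fold change 1.78, SE 0.369, edgeR adjusted p = 0.0076, and 0.061 without control replicate 1).

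Among receptors and adaptors, 3 of the 26 tested rose and 23 did not pass, a share of 11.5% beside 11.2% of all genes. TRAF1, an adaptor that binds the cIAP proteins, rose 1.83-fold from 3.35 ± 0.490 to 6.17 ± 0.537 CPM (SD, n = 3 wells each, edgeR adjusted p = 0.0017). TLR3, a receptor for double-stranded RNA, rose with a log2 fold change of 0.48 and TNFRSF11A, the receptor of TNFSF11, with 0.32 (edgeR adjusted p = 0.0011 and 0.0049). At an unadjusted p under 0.05, 8 of the 26 were higher and 3 lower, while of all 16353 genes 2149 were higher and 2056 lower.

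The list of IκB kinases, upstream kinases and their partner proteins held 13 genes, of which 2 rose by a small amount and 11 did not pass (15.4% called, beside 11.2% of all genes), with a median log2 fold change of -0.02. IKBKE, a kinase related to the IκB kinases, rose from 17.4 ± 1.61 to 21.7 ± 1.26 CPM, and TANK, an adaptor of that kinase, from 59.9 ± 1.87 to 68.6 ± 4.19 CPM (SD, n = 3 wells each, edgeR adjusted p = 0.021 and 0.046). The IKBKE call was lost when control replicate 1 or 2, or treated replicate 2, was left out (edgeR adjusted p = 0.11, 0.064 and 0.10). The TANK call was lost without any library but vitamin C replicate 3 (edgeR adjusted p = 0.17, 0.14 and 0.083 without control replicates 1, 2 and 3, and 0.16 and 0.054 without vitamin C replicates 1 and 2) and with upper quartile scaling (0.052).

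Inhibitors outside the 10 genes also held calls. Of 5 other IκB family genes, 2 rose (40%, beside 11.2% of all genes). These were NFKBIE and NFKBIZ, with log2 fold changes of 0.37 and 0.25 (edgeR adjusted p = 0.022 and 0.029). The NFKBIE call was lost when control replicate 2 or 3 (edgeR adjusted p = 0.10 and 0.083) or treated replicate 1 or 2 (0.062 and 0.056) was left out. The NFKBIZ call was lost when any library but vitamin C replicate 3 was left out (edgeR adjusted p = 0.12, 0.12 and 0.053 without control replicates 1, 2 and 3, and 0.071 and 0.14 without vitamin C replicates 1 and 2).

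Of 11 ubiquitin editors and other inhibitors, 2 rose (18.2%, beside 11.2% of all genes). CYLD, which like TNFAIP3 takes apart ubiquitin chains on signaling proteins, rose 1.34-fold from 52.0 ± 2.05 to 69.9 ± 1.52 CPM (SD, n = 3 wells each, edgeR adjusted p = 0.00022). TNIP3, a protein that binds TNFAIP3, rose from few counts. It is counted in the 18.2%, though it passed the filter on low counts only through its vitamin C libraries. Replicates 1, 2 and 3 held 5, 7 and 1 counts without and 26, 38 and 36 with vitamin C (log2 fold change 3.02, SE 0.429, edgeR adjusted p = 0.00052).

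Of 31 other target genes, 26 were tested, 9 rose and 1 fell (38.5% called, beside 11.2% of all genes). Of these 26 log2 fold changes 25 were above 0, beside 8032 of 16353 over all genes, and the median was 0.30. These shares and the median include VCAM1, CXCL10 and C3, which passed the filter on low counts only through their vitamin C libraries. CXCL8, an attractant of neutrophils, rose 1.98-fold and PTGS2, the inducible cyclooxygenase, 2.04-fold (edgeR adjusted p = 2.5e-07 and 1.5e-06). The chemokine CXCL1 rose 1.58-fold and SOD2, the mitochondrial superoxide dismutase, 1.25-fold (edgeR adjusted p = 9.0e-05 and 0.00042). The 1 gene that fell was MMP9, a matrix protease, from 3.19 ± 0.292 to 2.11 ± 0.294 CPM (SD, n = 3 wells each, edgeR adjusted p = 0.038), named here after its values were seen. Its call was lost without any library but vitamin C replicate 3 (edgeR adjusted p = 0.16, 0.074 and 0.076 without control replicates 1, 2 and 3, and 0.12 and 0.097 without vitamin C replicates 1 and 2) and in DESeq2 (0.079).

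**Figure D4:**
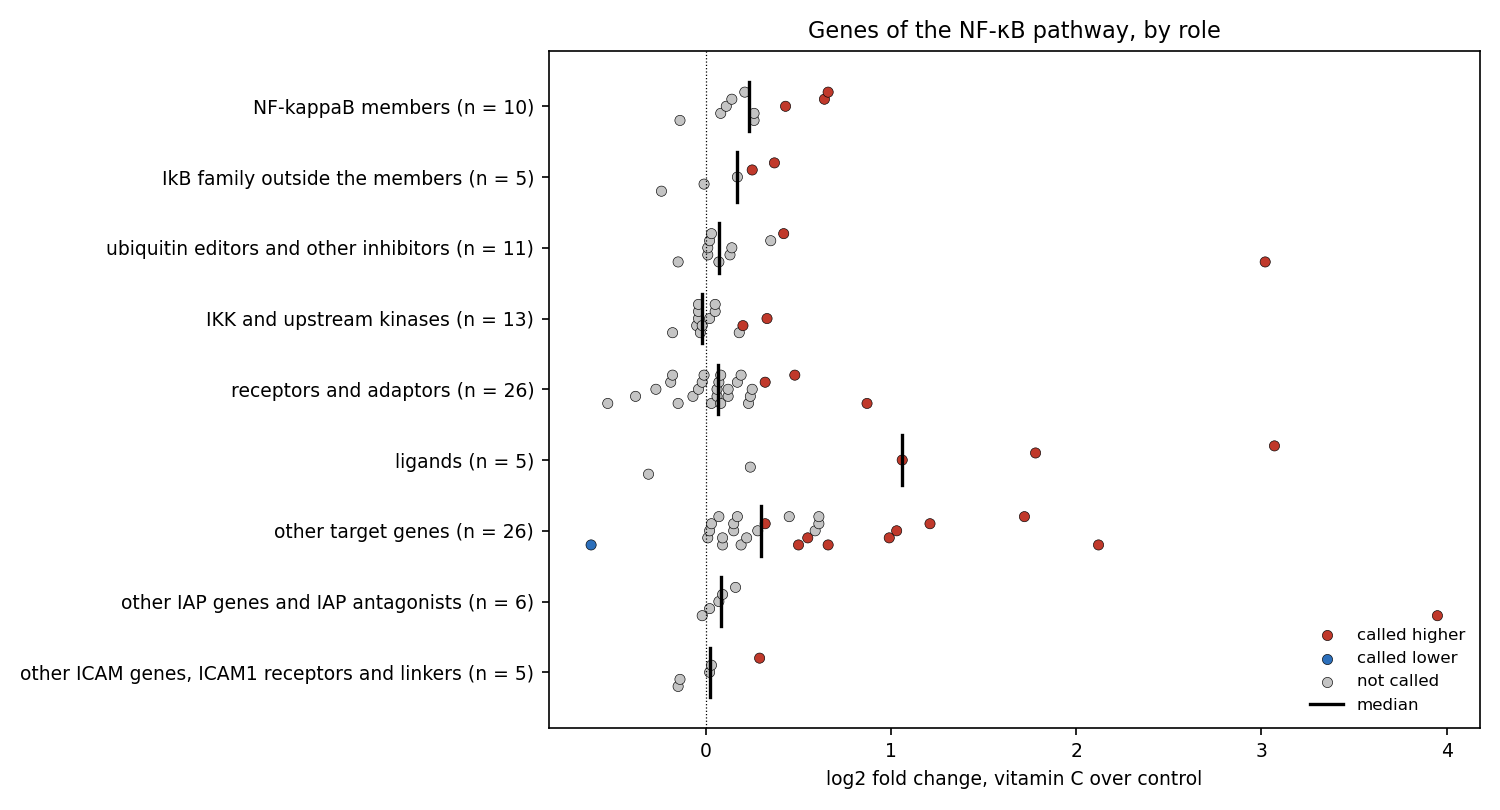
Log2 fold change, positive where higher with vitamin C (x axis), for each tested gene of the 10 members and of the 8 lists of other pathway genes (rows). Red points were called higher, the blue point (MMP9) lower and gray points were not called, and black lines are medians. The median of the kinases and their partners is -0.02, while the medians of the ligands and the target genes are 1.06 and 0.30. The ligands and target genes include some that passed the filter on low counts only through their vitamin C libraries.

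Among 6 tested genes related to the cIAPs, 1 was called (16.7%, beside 11.2% of all genes). This was BIRC7, an inhibitor of apoptosis known from melanoma. Replicates 1, 2 and 3 held 2, 3 and 2 counts without and 33, 56 and 21 with vitamin C (log2 fold change 3.95, SE 0.444, edgeR adjusted p = 8.6e-05). The size of this rise rests on 7 counts over the control libraries. BIRC7 passed the filter on low counts only through its vitamin C libraries, so the 16.7% rests on a gene tested for that reason. XIAP, BIRC5, BIRC6, DIABLO and HTRA2 were not called, with log2 fold changes between -0.02 and 0.16. In the ICAM list, 1 of 5 tested genes was called (20%). This was the cytoskeletal linker EZR, which rose 1.22-fold (edgeR adjusted p = 0.0018). The linker MSN went the other way, without overlap between the groups (log2 fold change -0.14). MSN was not called, as its edgeR adjusted p lay at the threshold (0.05 after rounding). The linker RDX was not called either (log2 fold change 0.02). The integrin chains that bind ICAM1 (ITGAL, ITGAM and ITGB2) had at most 14 counts over the libraries of a group.

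Some markers of other cell types were called higher with vitamin C. Of those tested, these were 1 of 2 leukocyte, 2 of 3 endothelial, 1 of 3 fibroblast and 0 of 1 epithelial markers. The share over all genes was 11.2%, called in either direction. The untested markers did not pass the filter on low counts. The summed level of 8 leukocyte markers was 4.51 to 5.88 CPM in control and 8.35 to 9.94 CPM in vitamin C wells. LAPTM5 made up most of it and was called higher, while PTPRC, the general leukocyte marker, had 67 counts in control and 45 in vitamin C libraries (log2 fold change -0.53, not called). CD53, CD52 and TYROBP had at most 1 count over the libraries of either group. The 5 endothelial markers summed to 7.78 to 9.16 and 16.0 to 17.1 CPM, with PECAM1 and KDR called higher. VWF was not called (log2 fold change 0.59), CDH5 had 4 and 13 counts per group and TEK 21 in both. The 5 fibroblast markers summed to 3.51 to 4.06 and 5.35 to 7.59 CPM, with PDGFRB called higher. DCN and COL1A1 were not called (log2 fold change 0.63 and -0.11), COL1A2 had 33 and 35 counts and THY1 10 and 3. The 5 epithelial markers summed to 1.42 to 1.61 and 2.00 to 2.67 CPM. KRT14 was not called (log2 fold change 0.39), and CDH1 had 6 and 30 counts and EPCAM 8 in both groups. The part of such transcripts in the changes of the 10 genes was not tested.

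The genes most like BIRC3, by the root mean square difference of log2 CPM centred on each gene's mean over the 6 libraries, were ALDH1A3 (0.0429), MGLL (0.0432) and EVA1A (0.0497). ALDH1A3, a retinaldehyde dehydrogenase, went from 198 to 304 CPM, and MGLL, a monoglyceride lipase, from 17.6 to 28.0 CPM. With 6 libraries in 2 groups, this measure rests mostly on the difference between the groups.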

How the data were processed

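RNA-seq of ribosome-depleted total RNA was examined for 3 control and 3 vitamin C wells. The deposited values are read counts per gene, not normalized, obtained by the authors with STAR alignment of paired-end reads and counting in HTSeq. The methods of the study name the annotation GENCODE v19, while hg38 is the build in the submitters' processing notes, which also list CASAVA 1.4, Trim Galore and STAR. The 6 tables of single samples hold the same counts as the table of the series.

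Symbols, positions and exon bases came from GENCODE 29 (57055 of 60675 identifiers matched), and promoters from RefSeq (GRCh38.p14). In R 4.3.3, edgeR 4.0.16 retained 16353 genes with filterByExpr, scaled libraries by TMM and fitted a quasi-likelihood model with treatment alone, with Benjamini-Hochberg adjustment over all genes. DESeq2 1.42.0, RLE and upper quartile scaling, no filter on low counts, the replicate block and each library left out were alternatives. CPM were computed from the counts with the TMM factors. Ratios were tested by exact permutation. Fits were tested on simulated data. The κB motif was searched by its IUPAC consensus on both strands, and overlapping matches were counted separately.

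The 10 genes, the lists and the tests were chosen with earlier results of these data known. Named genes are the 10 members, up to 4 called genes with the smallest p in each list, and the 3 profiles nearest to the member with the smallest p. The precision of a level is set by its counts, which for the members ran from 96 to 5672 per library.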

Additional observations from a re-analysis of the deposited data

How the results depend on the processing

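BIRC2, BIRC3 and TNFAIP3 were called under all 11 alternatives, with log2 fold changes of 0.39 to 0.47, 0.63 to 0.74 and 0.59 to 0.72. No member changed the sign of its log2 fold change under these alternatives, and none of the 5 subunits was called. NFKBIA was called with the replicate block (edgeR adjusted p = 0.043) and without control replicate 1 (0.039), over a range of 0.039 to 0.27. ICAM1 was called with no filter on low counts (0.045), over a range of 0.045 to 0.24. The number of members called was 3 or 4 throughout. Of the 24 other pathway genes called, 15 kept the call under every alternative that gave an adjusted p. The number of pathway genes called lower was 4 with upper quartile scaling, 2 with no filter and 0 with the replicate block, and ran from 0 to 1 when single libraries were left out (0 without control replicate 1, 2 or 3). The cause was not tested. The wells share replicate numbers, which were not taken as pairs. The deviations of same-numbered wells correlated at 0.123, -0.0237 and 0.0915, and 4 of 6 wells correlated best with their own number. With 3 numbers these values do not settle whether the wells were paired. With the replicate block, 4 members and 23 pathway genes were called. Log2 differences of the 5 ratios did not change sign when single libraries were left out.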
